A study of Rattus norvegicus with 30 samples.

Results

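The cytokine, chemokine and tumour necrosis factor (TNF) family genes were taken by name from the genes listed in the files. They were all names that open with Ccl, Ccr, Cxcl, Cxcr, Il or Csf and a digit, with Cx3c, Tnf or Osm, or with Ifna, Ifnb, Ifng or Ifnl, together with Lif and Lifr. Il6, Cxcl1, Cxcl6, Cxcl14 and Ccr1 match this pattern and were left out. The pattern gave 105 of the 9999 gene names. The rule itself reads only names, although it was set, with the 5 names it leaves out, when earlier results of these data were known. Of the 105 members, 35 reached 1 CPM (read counts of a gene scaled to a fixed total per sample) in at least 3 samples and were tested among 4363 genes that passed this filter. The other 70 members are described only by their range. Of the 35, 6 passed the filter only through 1 group: Ccl1 through CH at 72 h, Ccl9 through AD at 72 h, Il21r through CH at 3 h, Il22ra1 through OS at 12 h, and Tnfsf8 and Ifngr1 through 0 h. These were tested because of their level in that group, so their differences from it are given as a description, with no p.

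RNA was sequenced from bone marrow mesenchymal stem cells (BMSCs), the adherent stromal cells of marrow that can form bone, fat and cartilage cells. The cells were taken from femurs and tibiae of 3 female Sprague Dawley rats aged 3 weeks and were used at passage 2, and no genetic change or added cytokine is named for any group. Undifferentiated cells were sampled at 0 h (labelled CON), and cells in commercial osteogenic (OS), adipogenic (AD) or chondrogenic (CH) medium were sampled at 3, 12 and 72 h, with 3 samples in each of the 10 groups. Each sample pooled 3 cultures, and the 72 h samples carry the label 3d. The labels name the samples as biological replicates, but nothing ties a sample to a rat, so the p-values measure only the spread between pooled cultures. The composition of the differentiation media is not analysed here.

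The totals behind the values were 3899609 to 9046719 reads per sample, and 3 reads, or 0.332 to 0.769 CPM, were taken as the floor of a sample. Several genes that every cell uses were listed at or near 0 in the same files: Actb lay at 0 to 5.39 CPM and Ppia at 0 to 0.455 CPM, while Rplp0 lay at 2075 to 7542 CPM. A low row may therefore not hold all reads of its gene, and a member at 0 is described here as listed at 0, not as absent. CPM are not scaled to gene length, so levels were tested only between samples for 1 gene. Sums over markers and mentions of high or low levels across genes are descriptions. Of the mesenchymal markers, Thy1, Cd44 and Itgb1 were listed at high levels at 0 h, at means of 8052, 599.5 and 7729.6 CPM, whereas Eng, Vim, Pdgfra and Pdgfrb were at no more than 1.82 CPM in any sample. The summed level of the 7 mesenchymal markers in the files was 16086 to 16893 CPM at 0 h. It lay above this range in OS at 3 h (21324 to 23219 CPM) and 12 h (18753 to 18937 CPM), and below it in AD at 12 h (9411 to 12496 CPM), in AD at 72 h (4112 to 4779 CPM) and in CH at 72 h (9107 to 9585 CPM). It overlapped with 0 h in OS at 72 h, where the mean of Thy1 was 3707 CPM, that of Cd44 302 CPM and that of Itgb1 12315 CPM. The part of these markers in the member values was not tested. Of 16 macrophage and monocyte markers, 4 were in the files, and their summed level was at most 1.22 CPM outside the AD group at 72 h and 2.38 to 4.79 CPM inside it. In that group Lyz2 was at 1.42, 1.24 and 2.06 CPM and Adgre1 at 1.6, 2.84 and 0.317 CPM, and Mrc1 was listed at 0. Lyz2 and Adgre1 were both listed at 0 in all 3 samples at 0 h. Spi1 overlapped with 0 h, at 1.6, 0.709 and 0 CPM in AD at 72 h against 0.573, 0.557 and 0.152 CPM. In OS at 72 h Spi1 was at 1.19, 1.09 and 0.151 CPM.

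The third AD sample at 72 h stood apart from the other two. In it, 74 of the 4363 tested genes lay more than 2 log2 units from the mean of the other replicates of its group, against 0 to 24 genes in the other 29 samples. Ccl2, Ccl7, Il1rl1 and Tnfaip8l3 were the members among these genes. Results that rest on this sample are given with and without it. The next highest counts were 24 genes in the first AD sample at 12 h and 18 in the third OS sample at 3 h. None of these genes was a member. In read counts against the other replicates, chi-square per degree of freedom was 71.2 and 76.2 for the third AD sample at 72 h. It was 64.8 and 75.2 for that OS sample, 42.6 and 42.2 for that AD sample at 12 h, and at most 18.3 otherwise. Levels in OS at 3 h and AD at 12 h carry this limit. The 0 h samples enter all 9 comparisons with 0 h, so calls in different lineages are not independent of each other.

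Cytokines are small secreted proteins that carry signals between cells. Chemokines steer the migration of leukocytes, interleukins and colony-stimulating factors act on immune and stromal cells, and the TNF family pairs ligands with receptors that bind them at the cell surface or as soluble decoys. Marrow stromal cells secrete many of these proteins, among them CCL2, which draws monocytes out of the marrow, and osteoprotegerin, the decoy receptor encoded by Tnfrsf11b that binds RANKL and restrains osteoclast formation.

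Differences were tested with limma on log2(CPM + 1), and a gene was called where the log2 difference was at least 1 in either direction and the Benjamini-Hochberg adjusted p over all 4363 genes was under 0.05. Log2 differences are given with their standard error. On this scale the change of a gene listed at a few CPM is understated. Where every sample of a group was at or under 3 reads, the fold is a lower bound against that floor.

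Against 0 h, 28 of the 35 tested members were called at least once, or 80% of them, and 2320 of all 4363 tested genes were called at least once, or 53.2%. Of these 28, 13 were only lower than at 0 h, 11 were only higher, and Cxcl2, Cxcl3, Il1b and Tnfrsf12a were called in both directions. The same split over all 4363 genes was not counted, so it describes the members only. No member was called lower in all 9 groups. The remaining 7 members were never called against 0 h. Without the 6 members that passed the filter only through 1 group, a count added after the data were seen, 23 of 29 were called at least once (79.3%), 12 only lower, 7 only higher and 4 in both directions.

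**Figure D1:**
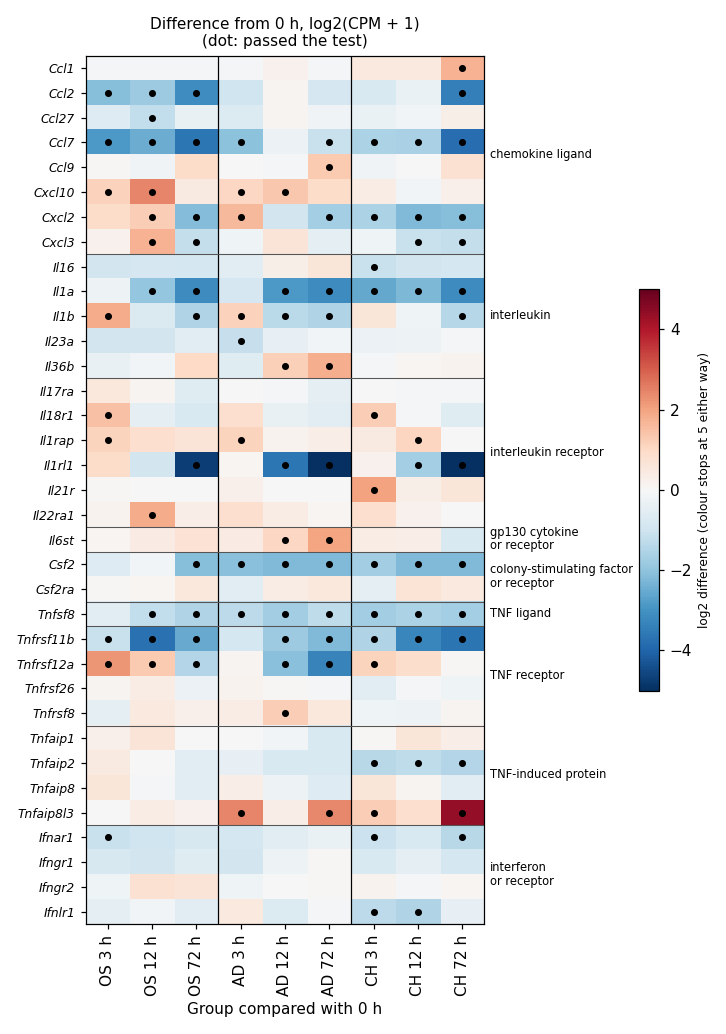
Log2 difference from 0 h, on the log2(CPM + 1) scale, of the 35 tested members (rows, grouped by role) in the 9 groups of differentiating cells (columns); dots mark differences that passed the test, and the colour stops at 5 in either direction. Tnfrsf11b is blue in every column and Tnfsf8, Il1a and Csf2 in most, while Tnfrsf12a turns from red to blue between 3 and 72 h in OS. Ccl1, Ccl9, Ifngr1, Il21r, Il22ra1 and Tnfsf8 passed the filter only through 1 group, and any dots in their rows are a description.

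At 3 h in OS, 9 members passed the test where 18.4% of all genes did, 5 of them upregulated (11.7% of all genes) and 4 downregulated (6.67%). At 12 h in OS there were 11 (21.8%), of which 5 were upregulated (14.7%) and 6 downregulated (7.15%), and at 72 h all 11 (12.5%) were downregulated (5.29%), where 7.2% of all genes were upregulated. Median-ratio scaling gave 5 up and 6 down for OS at 3 h, where it called 18.3% of all genes in either direction. For OS at 12 h it gave 3 up and 10 down (20.6%).

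In AD the test was passed by 9 members at 3 h (18.8% of all genes), 5 upregulated (12.4%) and 4 downregulated (6.42%). It was passed by 11 at 12 h (13.7%), 4 upregulated (8.14%) and 7 downregulated (5.55%), and by 13 at 72 h (15.3%), 4 upregulated (6.19%) and 9 downregulated (9.08%). For AD at 3 h the split was 3 up and 9 down with median-ratio scaling (18.2% of all genes in either direction). With quantile normalization it was 3 up and 8 down (18.1%). For the same group edgeR called 16 members, 6 up and 10 down, where it called 23.2% of all genes. For AD at 12 h edgeR gave 3 up and 10 down, where it called 16.7% of all genes. In CH the test was passed by 14 members at 3 h (18%), 4 upregulated (13.1%) and 10 downregulated (4.88%), by 11 at 12 h (14.4%), 1 upregulated (9.44%) and 10 downregulated (5.0%), and by 14 at 72 h (18%), 2 upregulated (11.6%) and 12 downregulated (6.37%). The member shares, 25.7% to 40% in either direction, stood above the share of all genes in each of these 9 comparisons, and were 27.6% to 41.4% of 29 without the 6 members that passed the filter only through 1 group. The median log2 difference of the 35 members at 72 h was -0.58 in OS, -0.16 in AD and -0.43 in CH, and that of all tested genes was 0.08, -0.05 and 0.01.

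**Figure D2:**
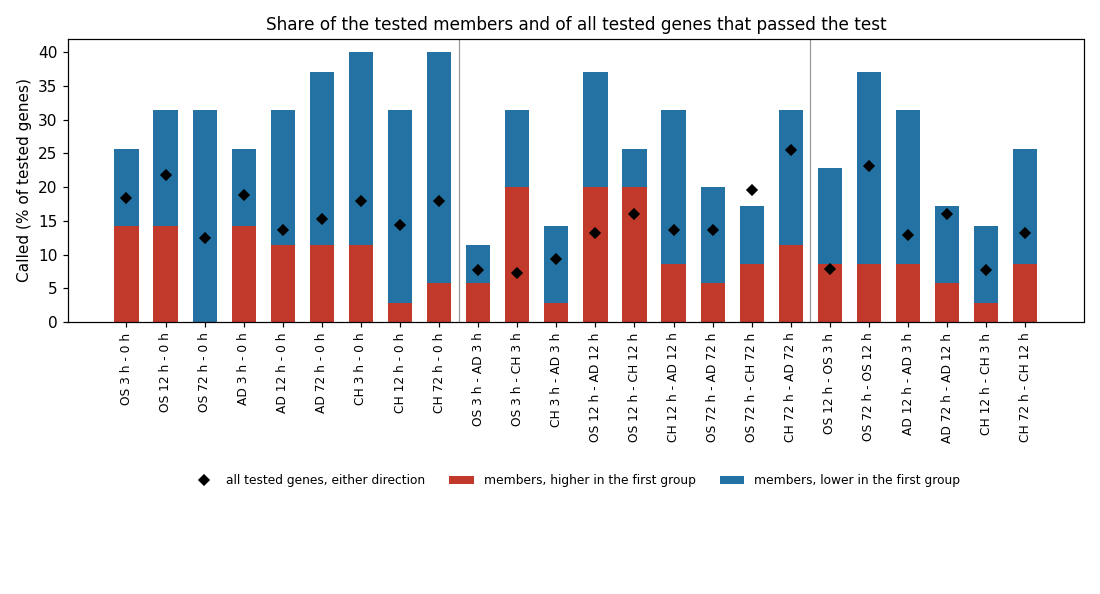
Share of the 35 tested members that passed the test in each of 24 comparisons (bars, in percent, red for higher and blue for lower in the first group named) and share of all 4363 tested genes that passed it in either direction (diamonds). The bars pass the diamonds in every comparison except OS against CH at 72 h, where 17.1% of the members and 19.6% of all genes were called.

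Ccl2 and Ccl7 encode CC chemokines that attract monocytes, and their genes lie next to each other in the RefSeq annotation. Both were listed at high levels at 0 h and fell in OS from 3 h on, whereas in AD at 12 h neither was called against 0 h, and in CH both reached their lowest level at 72 h. Ccl2 was at 1428, 1257 and 1429 CPM in the 3 samples at 0 h. It was at 328, 329 and 292 CPM after 3 h in OS, at 397, 368 and 406 CPM after 12 h and at 149, 172 and 159.6 CPM after 72 h. No OS sample reached the lowest 0 h sample, and the fall was called at every time, the largest of the 3 at 72 h (log2 difference -3.09 ± 0.34, adjusted p = 1.41e-08).

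In AD, Ccl2 was at 667, 687 and 724 CPM at 3 h, which was below every 0 h sample but missed the threshold (log2 difference -0.98 ± 0.34, adjusted p = 0.0186). At 12 h it was at 1630.2, 1457 and 1484 CPM, above every 0 h sample by a difference that was not called (log2 difference 0.15 ± 0.34, adjusted p = 0.781). The 72 h samples of AD held 1212, 1530.3 and 233 CPM, the third far below the other two. The drop from 12 to 72 h was called with all 3 samples (-1.01) and not without the third (-0.16), and it was also not called with quantile normalization, median-ratio scaling, edgeR or the fit of the 6 samples alone. In CH, Ccl2 was at 827, 847 and 766 CPM at 3 h and 1122, 861 and 1351 CPM at 12 h, neither called against 0 h, and at 115, 141 and 125 CPM at 72 h (log2 difference -3.42 ± 0.34, adjusted p = 1.02e-09). At 72 h Ccl2 was lower in OS than in AD (-2.24 ± 0.34) and lower in CH than in AD (-2.57 ± 0.34), and without the third AD sample these differences were -3.08 and -3.42. The OS difference was not called in the fit of its 6 samples alone, nor was that of Ccl7.

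Ccl7 had its highest mean at 0 h. It was at 1116, 1129.5 and 1145 CPM at 0 h, and in OS at 161, 160.4 and 144 CPM at 3 h, 203, 211 and 195 CPM at 12 h and 100.4, 84.6 and 91.9 CPM at 72 h, with no overlap with 0 h at any time. The log2 differences were -2.86 ± 0.36, -2.47 ± 0.36 and -3.6 ± 0.36. In AD it fell to 266, 261 and 287 CPM at 3 h (log2 difference -2.05 ± 0.36, adjusted p = 2.79e-05) and then rose to 1202, 829.9 and 792 CPM at 12 h, a rise from 3 h that was called (log2 difference 1.76 ± 0.36, adjusted p = 0.000326). At 72 h the AD samples were at 958, 1038 and 146 CPM. They were called lower than at 0 h with all 3 samples (-1.1), and this call was lost without the third (-0.18), with quantile normalization, with median-ratio scaling, with edgeR and with the fit of the 6 samples alone. In CH, Ccl7 was lower than at 0 h at 3 h (380.1 CPM), 12 h (369 CPM) and 72 h (80.9 CPM, log2 difference -3.8 ± 0.36, adjusted p = 5.79e-10). Ccl2 and Ccl7 are close relatives in sequence, and how reads shared between paralogs were counted is not given in the sources used here, so the split of reads between them is uncertain.

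**Figure D3:**
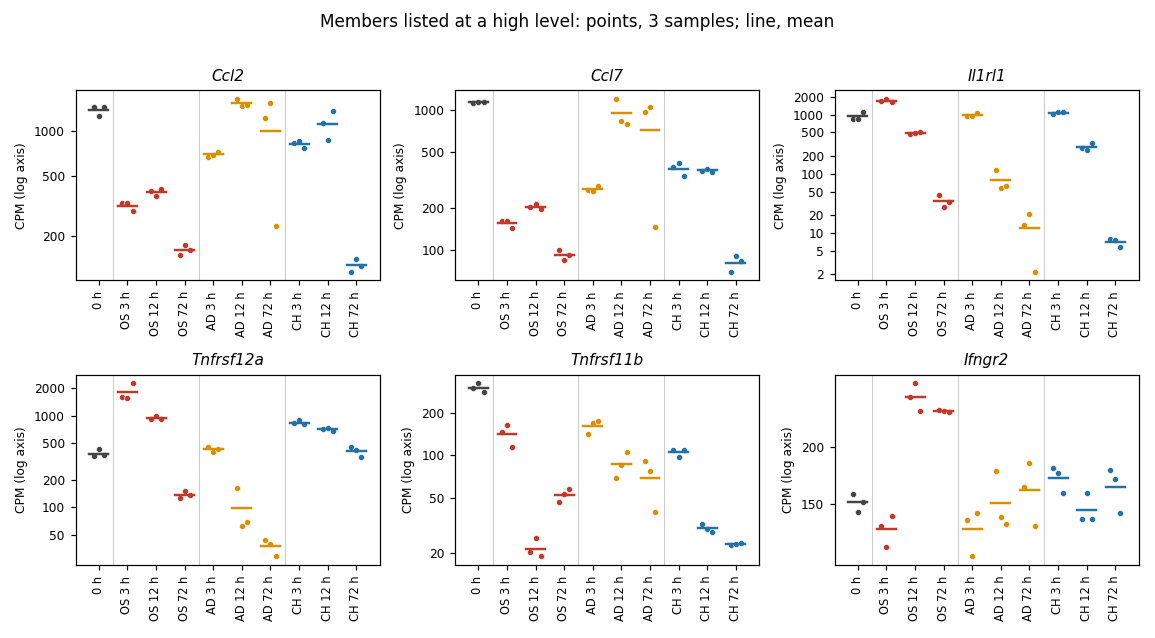
CPM on a log axis of 6 members in every sample of the 10 groups; points are the 3 samples and lines their mean. Ccl2 and Ccl7 sit lowest in OS and in CH at 72 h, the third AD sample at 72 h lies apart from its group in both, and Il1rl1 falls in all 3 lineages to means between 7.16 and 35.3 CPM at 72 h.

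The remaining CC chemokine ligands were listed at low levels, and the ones named here were chosen after their values were seen. Ccl1, a ligand of CCR8, was at 3.33, 1.11 and 3.78 CPM in CH at 72 h and at 0 to 0.899 CPM in the other 27 samples (at least 6.31-fold higher than at 0 h). Ccl9, a ligand of CCR1, was at 2.31, 3.01 and 0.634 CPM in AD at 72 h (at least 4.58-fold higher than at 0 h), with its lowest value in the sample that stood apart and with the macrophage marker sum at 2.38 to 4.79 CPM in the same samples. The part of other cells in the Ccl9 level was not tested, and fewer cells of a type cannot be told apart from less RNA per cell in these bulk samples. Ccl27 was lower in OS at 12 h than at 0 h (at least 3.37-fold lower), at 0, 0 and 0.152 CPM against 0.859, 2.51 and 1.21 CPM, and was not called in any other group against 0 h. Without replicate 2 of 0 h the difference was -0.95 and not called.

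The CXC ligands Cxcl2, Cxcl3 and Cxcl10 rose together in OS at 12 h. CXCL2 and CXCL3 attract neutrophils through CXCR2, and CXCL10, an interferon-induced chemokine, attracts activated T cells through CXCR3. Promoter sequences were taken from RefSeq (build GRCr8), which held 31 of the 35 tested members; Ccl2, Cxcl3, Il17ra and Tnfrsf11b had no entry. The 250 bases before the annotated start are shown for Cxcl2 and Cxcl10, which rose together, and for Ccl7, which went the other way in the same samples. Capitals mark matches, on either strand, to the NF-kappaB consensus, to TATAAA and to the AP-1 site TGAGTCA.
Ccl7 (chr10:67513845-67514094, plus strand): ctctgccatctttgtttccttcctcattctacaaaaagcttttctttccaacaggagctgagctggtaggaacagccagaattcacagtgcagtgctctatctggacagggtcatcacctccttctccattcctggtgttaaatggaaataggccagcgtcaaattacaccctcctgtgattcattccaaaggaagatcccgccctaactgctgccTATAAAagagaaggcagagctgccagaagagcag
Cxcl2 (chr14:17467256-17467505, minus strand): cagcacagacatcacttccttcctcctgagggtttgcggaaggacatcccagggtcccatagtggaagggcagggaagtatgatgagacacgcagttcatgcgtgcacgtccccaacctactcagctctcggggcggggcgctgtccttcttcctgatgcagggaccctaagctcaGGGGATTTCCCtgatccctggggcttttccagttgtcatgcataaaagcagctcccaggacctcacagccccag
Cxcl10 (chr14:15988816-15989065, plus strand): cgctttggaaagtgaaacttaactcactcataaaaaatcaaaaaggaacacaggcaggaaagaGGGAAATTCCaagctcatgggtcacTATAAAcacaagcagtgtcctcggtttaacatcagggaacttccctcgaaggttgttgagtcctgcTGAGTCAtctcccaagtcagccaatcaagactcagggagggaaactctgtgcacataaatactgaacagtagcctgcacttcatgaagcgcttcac
In Cxcl2 the capitals are 2 overlapping NF-kappaB matches that end 64 bases before the start. Cxcl10 holds an NF-kappaB match 178 to 187 bases before its start, TATAAA at 157 to 162 bases and TGAGTCA at 90 to 96 bases, and Ccl7 holds only TATAAA, at 29 to 34 bases. An NF-kappaB match was found in 7 of the 31 members (Ccl9, Csf2ra, Cxcl10, Cxcl2, Ifngr2, Il1rap and Tnfrsf8) and in 3.54% of the 33469 promoters in the table. Of these members, only Cxcl2 and Cxcl10 were called in OS at 12 h against 0 h. Il22ra1 and Tnfrsf12a were also higher there and held no match. Ccl27, Ccl7, Il1a and Tnfsf8 were lower there and held none either. The genes shown were picked by their course, and a link between match and course was not tested. TATAAA was in 9 of the 31 and in 12.9% of all promoters, and TGAGTCA was in 4 of the 31 and in 4.05%. A match describes letters in this window and not binding.

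Cxcl2 was at 3.29, 3.76 and 4.7 CPM at 0 h. In OS it was at 7.21, 7.27 and 10.9 CPM at 3 h, just short of a call (log2 difference 0.93 ± 0.22, adjusted p = 0.00112), rose to 10.4, 11.96 and 9.6 CPM at 12 h (log2 difference 1.25 ± 0.22, adjusted p = 2.77e-05), and was listed at 0, 0.156 and 0.151 CPM at 72 h (at least 8.60-fold lower than at 0 h). The rise at 12 h was 0.96 with median-ratio scaling and then not called. In AD the peak came at 3 h, at 13.3, 14.2 and 14.1 CPM (log2 difference 1.6 ± 0.22, adjusted p = 7.70e-07), and every AD sample at 12 h was below every 0 h sample, at 1.61, 1.47 and 1.67 CPM. In CH, Cxcl2 was lower than at 0 h at all 3 times, at 0.30, 1.17 and 0.492 CPM at 3 h (log2 difference -1.6 ± 0.22, adjusted p = 7.75e-07) and at no more than 0.445 CPM in any later sample. At 3 h, Cxcl2 was 21.1-fold lower in CH than in AD (log2 difference -3.2 ± 0.22, adjusted p = 2.01e-12), and at 12 h it was at least 23.2-fold higher in OS than in CH (log2 difference 3.47 ± 0.22, adjusted p = 1.38e-13).

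Cxcl3 and Cxcl10 were named after their values were seen. Cxcl3, whose rows of the same name were summed, was at 1.58, 1.25 and 1.06 CPM at 0 h, 2.04, 0.79 and 2.35 CPM at 3 h in OS and 6.48, 5.68 and 8.23 CPM at 12 h (log2 difference 1.76 ± 0.28, adjusted p = 4.07e-06), and was listed at 0 in all 3 OS samples at 72 h. In CH it was at 0, 0.156 and 0 CPM at 12 h and listed at 0 in all 3 samples at 72 h, and both groups were called lower than at 0 h. Cxcl10 was at 0.143, 0.279 and 0 CPM at 0 h and rose in OS to 2.19, 1.26 and 1.24 CPM at 3 h and 4.97, 5.38 and 5.33 CPM at 12 h, at least 12.0-fold higher than at 0 h (log2 difference 2.46 ± 0.29, adjusted p = 3.37e-08). The OS call at 3 h was lost without replicate 1 of that group (0.99). It also rose in AD at 3 h (1.03 ± 0.29) and 12 h (1.33 ± 0.29), where the samples held 1.02, 2.58 and 2.22 CPM, and it stayed at or under 0.667 CPM in all 9 CH samples. The AD call at 3 h was lost with quantile normalization (0.92) and with median-ratio scaling (0.97), and without replicate 3 of 0 h or replicate 2 of AD at 3 h (0.94 and 0.84). At 12 h Cxcl10 was higher in OS than in CH (log2 difference 2.57 ± 0.29, adjusted p = 2.46e-08) and lower in CH than in AD (-1.45 ± 0.29).

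**Figure D4:**
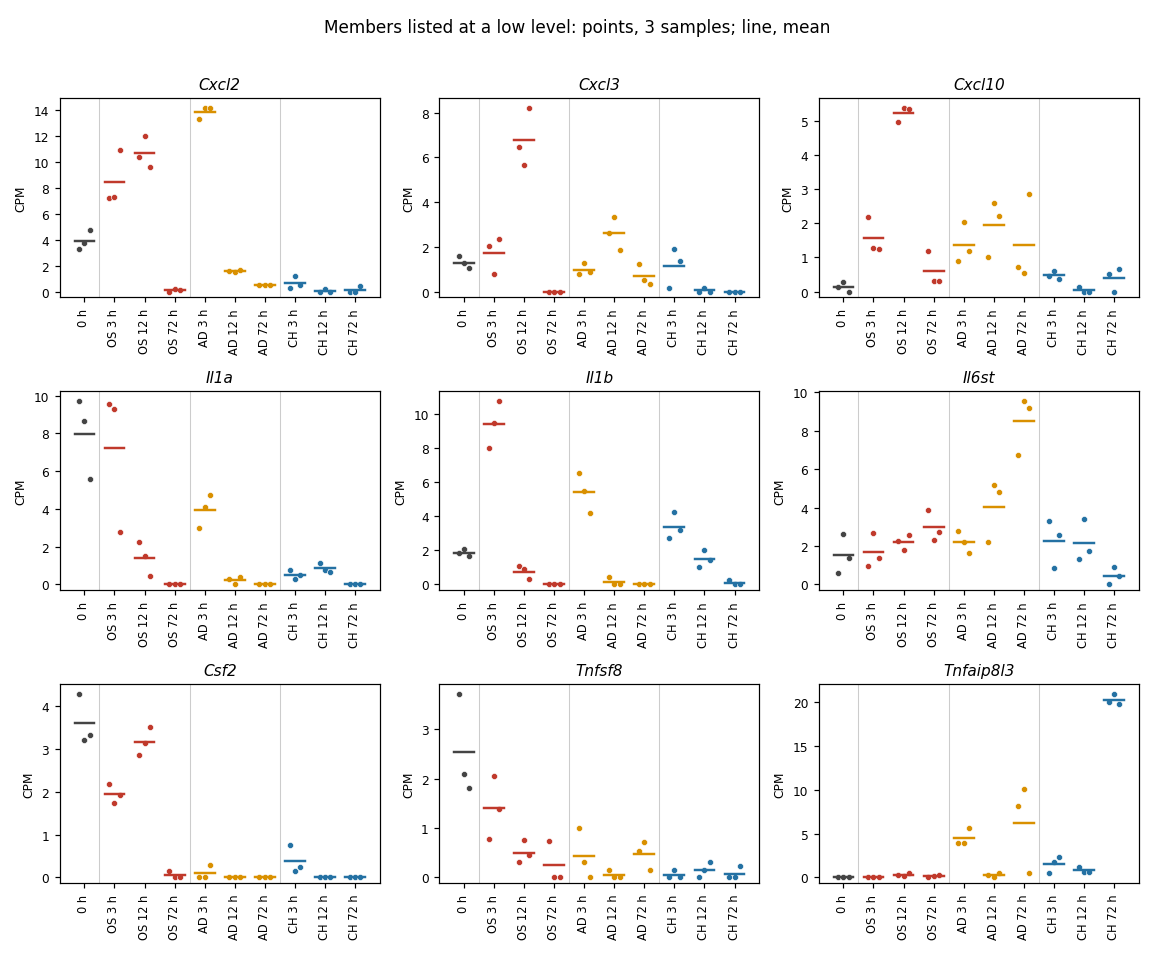
CPM on a linear axis of 9 members listed at low levels, in every sample of the 10 groups; points are the 3 samples and lines their mean. Cxcl3 and Cxcl10 are highest at 12 h in OS, Cxcl2 is highest at 3 h in AD and next at 12 h in OS, Il1b peaks at 3 h in OS and AD, and Tnfaip8l3 stands at 19.8 to 21.0 CPM in CH at 72 h.

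The genes of interleukin 1 alpha and interleukin 1 beta, which act through the same receptor and lie next to each other in the RefSeq annotation, differed in course. Il1b was at 1.86, 2.09 and 1.67 CPM at 0 h and rose at 3 h to 7.99, 9.48 and 10.8 CPM in OS (log2 difference 1.85 ± 0.23, adjusted p = 7.23e-08) and 6.52, 5.51 and 4.16 CPM in AD (log2 difference 1.14 ± 0.23, adjusted p = 0.000138). The AD rise was 0.96 with median-ratio scaling and then not called. In CH at 3 h it was at 2.7, 4.26 and 3.2 CPM, above every 0 h sample but under the threshold of 1 (log2 difference 0.60 ± 0.23, adjusted p = 0.0355), and it was higher in OS than in CH at that time (1.26 ± 0.23), a call that was lost with a pseudocount of 0.1. By 72 h Il1b was listed at 0 in all 3 samples of OS and of AD and in 2 of the 3 of CH, and each group was called lower than at 0 h.

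Il1a, named after its values were seen, was highest at 0 h. It was at 9.74, 8.64 and 5.61 CPM at 0 h and at 9.56, 9.32 and 2.77 CPM at 3 h in OS, where 1 sample lay apart and the groups overlapped. At 12 h in OS it had fallen to 2.26, 1.49 and 0.457 CPM (log2 difference -1.95 ± 0.30, adjusted p = 3.46e-06), and in AD at 12 h to 0.293, 0 and 0.37 CPM (at least 15.5-fold lower). In CH the fall was already called at 3 h, at 0.749, 0.294 and 0.492 CPM (log2 difference -2.55 ± 0.30, adjusted p = 4.35e-08), and at that time Il1a was lower in CH than in OS (OS minus CH, 2.31 ± 0.30) and in AD (CH minus AD, -1.7 ± 0.30). At 72 h Il1a was listed at 0 in all 9 samples of the 3 lineages.

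Among the other interleukins, Il36b, a member of the interleukin 1 family, went up in AD and was named after its values were seen. It was at 2.15, 0.975 and 1.67 CPM at 0 h, 3.8, 4.79 and 6.11 CPM at 12 h in AD (log2 difference 1.19 ± 0.27, adjusted p = 0.000767) and 10.9, 7.09 and 6.65 CPM at 72 h (log2 difference 1.82 ± 0.27, adjusted p = 2.60e-06; 1.94 without the sample that stood apart). In OS it reached 5.07, 3.9 and 3.31 CPM at 72 h and missed the threshold (log2 difference 0.98 ± 0.27, adjusted p = 0.00568), and the difference between OS and AD at 72 h was not called (log2 difference -0.84 ± 0.27, adjusted p = 0.0142). Il16, a ligand of CD4, was at 0.716, 0.836 and 2.58 CPM at 0 h and 0.15, 0 and 0 CPM in CH at 3 h, a fall that was called but not without replicate 3 of 0 h (-0.76). Il16 was higher in AD than in OS at 72 h (OS minus AD, -1.46 ± 0.28) and than in CH (CH minus AD, -1.49 ± 0.28). Il23a, a subunit of interleukin 23, was lower in AD at 3 h (log2 difference -1.13 ± 0.30, adjusted p = 0.00305) and was not called in any other group against 0 h.

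Of the interleukin receptors, Il1rl1 changed by far the most in size. It encodes ST2, the receptor of the alarmin interleukin 33, which exists in a membrane form and a secreted decoy form that a gene total does not separate, and its rows of the same name were summed. Il1rl1 was at 835, 859 and 1099.5 CPM at 0 h. In OS it stood at 1677, 1866 and 1643 CPM at 3 h, above every 0 h sample but under the threshold (log2 difference 0.90 ± 0.36, adjusted p = 0.0466), then at 474, 492 and 509 CPM at 12 h, below every 0 h sample and again not called (log2 difference -0.91 ± 0.36, adjusted p = 0.0405), and then at 44.8, 27.8 and 33.4 CPM at 72 h (log2 difference -4.7 ± 0.36, adjusted p = 9.12e-12). The fall between successive times in OS was called from 3 to 12 h (-1.81 ± 0.36) and from 12 to 72 h (-3.79 ± 0.36).

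In AD, Il1rl1 was at 929.7, 956 and 1081 CPM at 3 h, 115, 57.6 and 61.6 CPM at 12 h (log2 difference -3.62 ± 0.36, adjusted p = 2.25e-09) and 13.5, 21.1 and 2.22 CPM at 72 h (log2 difference -6.51 ± 0.36, adjusted p = 3.81e-15; -5.69 without the third sample). In CH it was at 1034, 1124 and 1092 CPM at 3 h, 271, 254 and 332 CPM at 12 h (log2 difference -1.7 ± 0.36, adjusted p = 0.000332) and 7.95, 7.74 and 5.78 CPM at 72 h, 130-fold lower than at 0 h in mean CPM (log2 difference -6.84 ± 0.36, adjusted p = 8.30e-16). At 12 h the lineages did not overlap: OS was above AD (2.71 ± 0.36) and CH was above AD (1.92 ± 0.36). At 72 h OS was above CH (log2 difference 2.14 ± 0.36, adjusted p = 1.50e-05), and above AD by 1.82 ± 0.36, or 0.99 and not called without the third AD sample. The difference between CH and AD at 72 h was not called with all samples (log2 difference -0.32 ± 0.36, adjusted p = 0.489), and CH was called lower without the third AD sample (-1.15).

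Il18r1, the gene next to Il1rl1, encodes the ligand-binding chain of the interleukin 18 receptor. It was named after its values were seen, like the other receptors in this paragraph. It was at 0.43, 1.25 and 1.67 CPM at 0 h and higher at 3 h in OS (4.86, 5.69 and 3.6 CPM, log2 difference 1.46 ± 0.31, adjusted p = 0.00033) and in CH (3.15, 4.4 and 3.93 CPM, 1.23 ± 0.31), and in AD at 3 h it was at 2.1, 2.83 and 3.12 CPM with no call (log2 difference 0.84 ± 0.31, adjusted p = 0.0317). By 12 h it was lower than at 3 h in all 3 lineages. These calls rest on few reads. With a pseudocount of 0.1 both calls at 3 h and the falls from 3 to 12 h in AD and CH were lost. The differences were larger there (2.13 in OS and 1.85 in CH at 3 h, falls of -2.04 in AD and -1.92 in CH). Their adjusted p was 0.0621 to 0.146 (limma). With edgeR both CH calls were lost, and the CH call at 3 h was also lost without replicate 1 of 0 h. Il1rap, the shared accessory chain of the interleukin 1 receptor family, was higher at 3 h in OS (2.09 CPM) and AD (2.06 CPM) and at 12 h in CH (1.99 CPM) than at 0 h (0.444 CPM), and each call was lost without replicate 1 of 0 h, at 0.97 or under. Il21r was at 3.9, 3.23 and 2.09 CPM in CH at 3 h, at least 7.08-fold higher than at 0 h, and at no more than 1.03 CPM in the other 27 samples. Il21r encodes a receptor of lymphocytes, and the summed level of the 3 lymphocyte markers in the files was 0.899 to 2.58 CPM in these 3 samples and at most 0.935 CPM elsewhere. Ms4a1 made up nearly all of that sum, with Cd3g at 0 in 2 of the 3 samples, and the part of other cells in the Il21r level was not tested. Il22ra1, which lies next to Ifnlr1, was at 1.96, 4.04 and 2.13 CPM in OS at 12 h and listed at 0 in all 3 samples at 0 h. Elsewhere it reached 1 CPM only in the third AD sample and the first CH sample at 3 h. Il17ra, the common chain of interleukin 17 receptors, had group means from 269.7 CPM in OS at 72 h to 594 CPM in OS at 3 h and was not called in any of the 24 comparisons.

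Il6st encodes gp130, the signalling chain shared by receptors of the interleukin 6 family. It was at 0.573, 2.65 and 1.36 CPM at 0 h and highest in AD at 72 h, at 6.77, 9.58 and 9.19 CPM (log2 difference 1.98 ± 0.35, adjusted p = 3.05e-05; 1.93 without the third sample). Every AD sample at 72 h was above every other sample, and AD was higher than CH at 72 h (CH minus AD, -2.75 ± 0.35), where the samples held 0, 0.884 and 0.445 CPM. The AD call at 12 h, at 2.19, 5.16 and 4.81 CPM with groups that overlapped, was lost under most alternatives, among them median-ratio scaling (0.87) and edgeR. Osmr and Il11, the other members of this family on the list of key genes, and Osm were not tested.

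Csf2, which encodes the granulocyte and macrophage growth factor GM-CSF and was named after its values were seen, separated OS from the other lineages at 3 and 12 h. It was at 4.3, 3.2 and 3.34 CPM at 0 h. In OS it was at 2.19, 1.74 and 1.94 CPM at 3 h and 2.86, 3.14 and 3.5 CPM at 12 h, neither called (-0.64 and -0.14), and at 0.149, 0 and 0 CPM at 72 h (at least 7.92-fold lower). In AD it was at 0, 0 and 0.297 CPM at 3 h (log2 difference -2.07 ± 0.18, adjusted p = 5.93e-11) and listed at 0 in all 6 later samples, and in CH it was at 0.749, 0.147 and 0.246 CPM at 3 h (log2 difference -1.76 ± 0.18, adjusted p = 1.53e-09) and listed at 0 in all 6 later samples. At 12 h Csf2 was at least 6.15-fold higher in OS than in AD and at least 6.91-fold higher than in CH. Csf2ra, the ligand-binding chain of its receptor, ranged from 0.518 to 2.49 CPM in group mean and was not called against 0 h.

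The TNF receptor genes Tnfrsf11b and Tnfrsf12a were the tested TNF receptors with the largest changes. Tnfrsf11b, which encodes osteoprotegerin, was at 299.5, 325 and 281 CPM at 0 h and was called lower in 8 of the 9 groups. In OS it was at 147, 165 and 114 CPM at 3 h, 20.3, 25.7 and 19.04 CPM at 12 h and 46.8, 53.05 and 57.3 CPM at 72 h. The log2 difference from 0 h was -1.1 ± 0.19 at 3 h, or -0.95 and not called without replicate 3, -3.75 ± 0.19 at 12 h and -2.51 ± 0.19 at 72 h, and the partial return from 12 to 72 h was called (log2 difference 1.24 ± 0.19, adjusted p = 3.71e-06). In AD at 3 h every sample was below every 0 h sample, at 142, 171 and 175 CPM, without reaching the threshold (log2 difference -0.89 ± 0.19, adjusted p = 0.000381), and at 12 and 72 h the means were 86.7 and 69.2 CPM. In CH the level went from 108, 97.03 and 109 CPM at 3 h to 32.2, 29.9 and 28.5 CPM at 12 h and 23.1, 23.2 and 23.8 CPM at 72 h (log2 difference -3.63 ± 0.19, adjusted p = 1.14e-15). At 12 h OS was lower than AD (-1.94 ± 0.19) and CH was lower than AD (-1.47 ± 0.19), and at 72 h OS was higher than CH (1.13 ± 0.19).

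Tnfrsf12a encodes Fn14, the receptor of the TNF family ligand TWEAK. It was at 360.0, 428 and 371 CPM at 0 h and moved apart by lineage. In OS it rose to 1603, 1572 and 2264 CPM at 3 h (log2 difference 2.21 ± 0.21, adjusted p = 3.48e-10), stood at 926, 1004 and 924 CPM at 12 h and fell to 127, 149.6 and 136 CPM at 72 h (log2 difference -1.48 ± 0.21, adjusted p = 1.23e-06). In AD it was at 451, 399.8 and 436 CPM at 3 h, 162, 62.2 and 69.4 CPM at 12 h (log2 difference -2.1 ± 0.21, adjusted p = 1.61e-09) and 43.8, 40.1 and 28.99 CPM at 72 h (log2 difference -3.34 ± 0.21, adjusted p = 4.57e-14), and the first sample at 12 h lay above the other two of its group. In CH it was at 833, 887 and 809 CPM at 3 h, 714, 738 and 682 CPM at 12 h and 451, 417 and 353 CPM at 72 h. The higher level at 12 h in OS (1.3 ± 0.21) and at 3 h in CH (1.13 ± 0.21) was called, but under quantile normalization, median-ratio scaling and edgeR these differences were 0.75 to 0.97 and not called. At 12 h OS and AD differed by 3.41 ± 0.21 and CH and AD by 2.99 ± 0.21, and at 72 h the order of the groups was CH, OS and AD, with each pair called.

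Of the TNF ligands, only Tnfsf8 was tested. It encodes the CD30 ligand, and its receptor CD30 is the product of Tnfrsf8, and both were named after their values were seen. Tnfsf8 was at 3.72, 2.09 and 1.82 CPM at 0 h, the group through which it passed the filter. It was at 0.783, 2.05 and 1.38 CPM in OS at 3 h, which overlaps with 0 h, and at no more than 0.995 CPM in any sample of the other 8 groups. Tnfrsf8 was called higher against 0 h in AD at 12 h, at 3.07, 2.58 and 4.44 CPM against 0.859, 1.11 and 0.607 CPM (log2 difference 1.22 ± 0.29, adjusted p = 0.00112). Tnfrsf26 was never called.

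Among the members whose names open with Tnfaip, Tnfaip8l3, which encodes a protein that carries phosphoinositide lipids, was listed at 0 in all 3 samples at 0 h. It was also listed at 0 in all 3 of OS at 3 h, and it never passed 0.457 CPM in any OS sample. In CH it was at 0.45, 1.76 and 2.34 CPM at 3 h, 1.16, 0.623 and 0.634 CPM at 12 h and 20, 21 and 19.8 CPM at 72 h, at least 46.7-fold higher than at 0 h (log2 difference 4.41 ± 0.42, adjusted p = 5.87e-10). In AD it was at 3.98, 3.93 and 5.65 CPM at 3 h (log2 difference 2.45 ± 0.42, adjusted p = 1.93e-05), 0.293, 0 and 0.555 CPM at 12 h and 8.19, 10.1 and 0.475 CPM at 72 h (log2 difference 2.41 ± 0.42, adjusted p = 3.10e-05). The third of these was the sample that stood apart, and without it the difference at 72 h was 3.34. It was not called in the fit of the 6 samples alone. At 72 h CH was higher than OS (OS minus CH, -4.21 ± 0.42) and than AD (CH minus AD, 2.0 ± 0.42, or 1.07 without the third AD sample). The difference between CH and AD was not called in the fit of their 6 samples alone. The call in CH at 3 h was lost without replicate 2 or replicate 3 of that group.

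Tnfaip2 and Tnfaip1 were named after their values were seen. Tnfaip2 was lower in CH than at 0 h at all 3 times, at 1.65, 1.17 and 1.6 CPM at 3 h, 1.73, 1.56 and 1.74 CPM at 12 h and 1.28, 1.11 and 1.78 CPM at 72 h against 4.44, 6.69 and 5.61 CPM (log2 difference -1.46 ± 0.25, adjusted p = 2.46e-05 at 72 h), and it was not called in OS or AD. At 3 h it was higher in OS than in CH (log2 difference 1.84 ± 0.25, adjusted p = 2.42e-06). Tnfaip1, which encodes an adaptor of a ubiquitin ligase, lay between group means of 194 CPM in AD at 72 h and 511 CPM in OS at 12 h, with no call against 0 h. Tnfaip8 was not called in any comparison.

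The interferon members tested were all receptor chains. Ifngr2, a chain of the interferon gamma receptor, was at 158, 144 and 152 CPM at 0 h and at 257, 276 and 239.9 CPM at 12 h and 241, 239 and 238 CPM at 72 h in OS. Those 6 OS samples were above all 24 others, and the differences were under the threshold of 1 (log2 difference 0.76 ± 0.12, adjusted p = 3.69e-06 at 12 h and log2 difference 0.66 ± 0.12, adjusted p = 6.26e-05 at 72 h). Ifngr1, the other chain, was at group means of 0.102 to 1.2 CPM and was never called. Ifnlr1, the ligand-binding chain of the interferon lambda receptor, was at 16.04, 15.9 and 28.96 CPM at 0 h and lower in CH at 3 h (6.44, 7.78 and 7.38 CPM, log2 difference -1.33 ± 0.28, adjusted p = 0.000293) and 12 h (6.79, 3.12 and 10.8 CPM, log2 difference -1.5 ± 0.28, adjusted p = 7.33e-05). At 3 h it was lower in CH than in AD (log2 difference -1.8 ± 0.28, adjusted p = 1.29e-05). Ifnar1, a chain of the type I interferon receptor, was at 2.29, 2.93 and 3.49 CPM at 0 h and was called lower in OS at 3 h, CH at 3 h and CH at 72 h (log2 difference -1.4 ± 0.37, adjusted p = 0.00323). The first 2 of these calls were lost without replicate 3 of 0 h or without 1 sample of the differentiating group.

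The 70 members that were not tested reached at most 2.09 CPM and at most 16 reads in any sample, in different genes, and 47 of them never passed 3 reads. They include all 9 chemokine receptors, 17 of 23 interleukin receptors, 13 of 18 interleukins, 11 of 19 chemokine ligands and 5 of 6 TNF ligands. Il17f, Tnfrsf18, Il18 and Tnfsf9 had the highest single values among them, at 2.09, 2.05, 2.04 and 1.77 CPM. Csf1r, the receptor of macrophage colony-stimulating factor and of interleukin 34, reached 0.860 CPM, and Il34 reached 1.15 CPM. The receptor of RANKL, Tnfrsf11a, and Tnfrsf19, Ccl20, Il11 and Osmr never passed 3 reads in any sample.

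Between the lineages at the same time, 25 of the 35 members were called in at least 1 of the 9 comparisons, or 71.4%, and 51.6% of all genes were. Without the 6 members that passed the filter only through 1 group, 21 of 29 were called (72.4%). At 3 h, 4 members were called between OS and AD (7.66% of all genes), 5 between CH and AD (9.35%) and 11 between OS and CH (7.31%). Of those 11, 7 were higher in OS (2.25% of all genes were): Csf2, Cxcl2, Il1a, Il1b, Tnfaip2, Tnfrsf12a and Tnfsf8. The other 4 were lower in OS (5.07%): Ccl2, Ccl7, Tnfaip8l3 and Il21r, the last as a description, since it passed the filter through that CH group. The difference was under 1 for Tnfrsf12a without replicate 3 of OS (0.91) and for Tnfsf8 without replicate 2 of OS (0.98), it fell just under 1 for Csf2 without replicate 2 of CH, the call of Il1b was lost with a pseudocount of 0.1, and that of Tnfaip8l3 was not called under most alternatives. At 12 h, 13 members were called between OS and AD (13.2%), 9 between OS and CH (16.0%) and 11 between CH and AD (13.6%). In the first of these 7 were higher in OS (6.99%) and 6 lower (6.17%), and in the second 7 were higher in OS (8.87%) and 2 lower (7.08%). With edgeR the second split was 7 and 4, where 20.8% of all genes were called. Csf2, Cxcl10, Cxcl2, Cxcl3 and Il22ra1 were higher in OS than in both other lineages at 12 h, and Ccl2 and Ccl27 were lower in OS than in both; Il22ra1 is given as a description, since it passed the filter through that OS group. The OS against AD calls of Cxcl10 and Cxcl3 at 12 h were lost with a pseudocount of 0.1 and with edgeR. At 72 h, 7 members were called between OS and AD (13.7%), 6 between OS and CH (19.6%) and 11 between CH and AD (25.5%). The share of members lay under that of all genes for OS against CH, and for OS against AD it did so in the fit of the 6 samples alone, with 3 members where 10.7% of all genes were called.

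Between successive times, the members were called most often from 12 to 72 h in OS, 13 of 35 (23.2% of all genes), with 3 higher (9.67%) and 10 lower (13.5%). Next came 3 to 12 h in AD, 11 of 35 (12.9%), with 3 higher (5.13%) and 8 lower (7.82%). With edgeR that split was 6 and 8, where 16.5% of all genes were called. The other counts were 8 from 3 to 12 h in OS (7.82%), 6 from 12 to 72 h in AD (16.0%), 5 from 3 to 12 h in CH (7.68%) and 9 from 12 to 72 h in CH (13.2%). From 12 to 72 h in AD, 2 were higher (5.18%) and 4 lower (10.8%). The split was 3 and 2 with quantile normalization, where 13.7% of all genes were called in either direction. With scaling by median ratios it was 5 and 1 (15.7%). Without the 6 members that passed the filter only through 1 group, the counts were 2 higher and 9 lower from 12 to 72 h in OS, 3 and 8 from 3 to 12 h in AD, and 1 and 4 from 12 to 72 h in AD. Ccl2, Ccl7 and Il36b were the members that rose from 3 to 12 h in AD. Il1rl1 fell in 6 of these 6 steps.

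Genes that carry the signals of these receptors were taken from 3 lists, which were drawn up with earlier results of these data known. Of 38 genes of NF-kappaB signalling and its feedback, 16 were in the files and 9 were tested, and in each comparison with 0 h at most 1 was higher and at most 3 were lower, where 12.5% to 21.8% of all genes were called in either direction. The list's median log2 difference was -0.61 to 0.26 over the 9 comparisons, and that of all tested genes -0.05 to 0.21. The 4 genes called against 0 h were Ripk2, Irak2, Irak3 and Relb. Ripk2, a kinase downstream of NOD receptors, was at 402, 403 and 412 CPM at 0 h, rose in OS to 1189, 1237 and 809 CPM at 3 h (log2 difference 1.38 ± 0.11, adjusted p = 1.69e-11) and 913, 901 and 887 CPM at 12 h, and fell to 137, 154 and 148 CPM at 72 h (log2 difference -1.47 ± 0.11, adjusted p = 6.76e-12). Irak2, a kinase of the interleukin 1 receptor complex, was at 59.5, 56.3 and 56.96 CPM in AD at 3 h against 3.72, 4.6 and 5.61 CPM at 0 h (log2 difference 3.39 ± 0.23, adjusted p = 6.41e-13) and was not called in any other group. Irak3, an inhibitor of the same complex, was at 19.8, 21.5 and 24.1 CPM at 0 h and lower in 6 groups, among them OS at 3 h (2.35, 6.32 and 0.83 CPM, log2 difference -2.68 ± 0.39, adjusted p = 1.11e-06).

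Of 25 genes of JAK-STAT signalling and its feedback, 13 were in the files and 9 were tested, with 0 to 2 higher and 0 to 2 lower in each comparison with 0 h, against the same 12.5% to 21.8% of all genes. The list's median was -0.10 to 0.35. All 4 genes called against 0 h belong to the suppressors of cytokine signalling and the related inhibitor Cish. Socs2 was at 0.716, 0 and 0.152 CPM at 0 h and at 25.4, 25.6 and 11.9 CPM in OS at 3 h (log2 difference 4.05 ± 0.34, adjusted p = 5.24e-11), with smaller rises in AD at 3 h (7.84 CPM) and at all 3 times in CH. Socs1 was at 0.143, 0.279 and 0.758 CPM at 0 h and at 22.1, 24.8 and 16.7 CPM in CH at 72 h (log2 difference 4.0 ± 0.32, adjusted p = 1.40e-11), with rises also called in AD at 3 h and CH at 12 h. Socs5 was lower than at 0 h in all 3 AD groups and in CH at 3 and 72 h. Of 5 atypical chemokine receptors, 3 were in the files and 1 was tested: Ccrl2, which binds the chemoattractant chemerin, was higher than at 0 h in OS at 72 h (5.82, 3.12 and 6.03 CPM against 1.29, 1.25 and 0.607 CPM, log2 difference 1.52 ± 0.35, adjusted p = 0.00118) and in AD at 12 h (7.17, 2.76 and 1.67 CPM, 1.1 ± 0.35). The second difference was 0.65, under the threshold of 1, without the first AD sample.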

How the data were processed

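RNA was measured in 30 samples, 3 in each of 10 groups. The authors deposited values headed FPKM. These deposited values are in fact CPM, since in every sample they are whole multiples of the value of 1 read, within 0.05 reads, which gave the reads and totals behind them. The labels name Trimmomatic, HISAT2 and StringTie without versions, and the genome build is not given in the sources used here. The study's methods name an mRNA library kit, whereas the labels describe depletion of ribosomal RNA and a strand-marking step, so the library type is uncertain. The genes listed held 38.9% to 71.4% of each total.

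Rows of the same name were summed (10803 rows, 9999 names). Genes reaching 1 CPM in 3 samples or more entered a fit by limma 3.58.1 (R 4.3.3) on log2(CPM + 1), with 10 groups, no covariate and a trend in the prior variance, in 24 comparisons, each adjusted by Benjamini-Hochberg over 4363 genes. Calls needed a log2 difference of at least 1 and an adjusted p under 0.05, the study's own thresholds. Alternatives were edgeR 4.0.16 on the recovered reads, a pseudocount of 0.1, quantile normalization, no filter on low values, scaling by median ratios, fits of only the 6 samples compared, a replicate block, leaving out each replicate, and leaving out repeated names. The scripts were tested on simulated data. All replicate pairs differed by more than counting noise (30 of 30). The members and lists were chosen with earlier results of these data known. The rule for named genes took tested members that were called against 0 h with a group mean of at least 10 CPM (8) or stood on a list of key genes (10), 13 in all; the other 22 tested members were named after their values were seen.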

Additional observations from a re-analysis of the deposited data

Results flagged for a closer look

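In 4 cases a member was called against 0 h in opposite directions in a pair of lineages at the same time, and the difference between those lineages was itself called. Opposite calls against the same 0 h samples already set those lineages apart, so the call between them adds no separate evidence. Cxcl2 at 3 h was lower than at 0 h in CH and higher in AD, and CH minus AD was -3.20 on the log2(CPM + 1) scale (limma, adjusted p = 2.01e-12), with no overlap between the 3 samples of each group. Tnfrsf12a at 12 h was higher than at 0 h in OS and lower in AD, and OS minus AD was 3.41 (adjusted p = 7.27e-14), although the rise in OS against 0 h was under 1 with quantile normalization, median-ratio scaling and edgeR. Cxcl2 at 12 h was higher than at 0 h in OS and lower in CH, and OS minus CH was 3.47 (adjusted p = 1.38e-13), although the rise in OS against 0 h was 0.96 and not called with median-ratio scaling. Cxcl3 at 12 h differed in the same way, and OS minus CH was 2.88 (adjusted p = 8.63e-10). All groups hold 3 samples, and no test of outlying samples was run.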

How the results depend on the processing

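Of 232 calls of members in the 24 comparisons, 173 were kept in every alternative that was run, 59 were lost in at least 1, and none changed sign. Of the 103 calls against 0 h, 81 were kept in every alternative. Most counts of called members stayed within 1.5 times the value in the report. With edgeR on the recovered reads the count in AD at 3 h against 0 h was 16 and not 9 (23.2% of all genes). With a pseudocount of 0.1 it was 7 and not 4 for OS against AD at 3 h (8.8%), 17 and not 11 for CH against AD at 72 h (32.8%), and 8 and not 5 for CH at 12 h against 3 h (9.24%). With the 6 samples of the comparison alone it was 3 and not 7 for OS against AD at 72 h (10.7% of all genes) and 3 and not 6 for AD at 72 h against 12 h (12.1%), and 3 of 35 members is a lower share than that of all genes in both. Both comparisons hold the AD sample that stood apart. The causes were not tested. Leaving out 1 sample at a time gave 8 to 16 called members in the 9 comparisons with 0 h. Median-ratio scaling moved the median of all genes against 0 h by -0.26 to 0.17 and for AD at 72 h against 12 h by 0.34.

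Samples with the same replicate number did not deviate together: in 0 of 45 pairs of groups were all correlations above 0.1 (-0.226 to 0.160), so the numbers were not taken to pair the samples. With the replicate block, 839 of 840 member results kept their side of the threshold, and Tnfaip8l3 in CH against AD at 3 h lost its call (-1.20, adjusted p = 0.0518; over the alternatives of this result the adjusted p reached 0.25). Members under about 1 CPM rest on fewer than 10 reads per sample, which limits what could be detected among them.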
